A study of Arabidopsis thaliana with 12 samples.

Results

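The transcripts of 10 papain-like cysteine protease (PLCP) genes were followed in wild-type Arabidopsis thaliana seedlings and in a tyrosine sulfation mutant with and without a sulfated peptide. The genes were picked by name out of the 32833 genes in the deposited table. They are RD21A, RD21B and RD21C, RD19A, RD19B and RD19C, the aleurain-type genes AALP and ALP2, and the cathepsin B-type genes CTB2 and CTB3. The choice was made with earlier results of these same libraries in view, across all 4 groups, so the levels and changes of the 10 genes are a description. No p-value is printed for them, and a call of a member only marks an adjusted p below 0.05. The table marks 37 genes with the protease family tag Peptidase_C1, and all 10 have it.

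RNA from 12 libraries was sequenced, 3 per group, from whole seedlings grown for 7 days in liquid medium. Col-0 is the wild type, and tpst carries a T-DNA insertion in TPST, the gene of the tyrosylprotein sulfotransferase that sulfates phytosulfokine (PSK) and other secreted peptides. Both genotypes were sampled without PSK, and tpst was also sampled after 5 h with 100 nM or with 1 µM PSK, so every PSK-treated seedling carried the mutation and no Col-0 seedling received PSK. A single tpst line was used, and PSK was the only peptide given back, although TPST also sulfates the PSY and RGF families. The labels give time 0 and no treatment for the untreated groups while the study's methods describe a water mock, so effects of harvest time and of PSK cannot be told apart. Each library was a separate biological replicate by the study's methods, and p-values below reflect the spread between these replicates.

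PLCPs are made as inactive precursors whose prodomain blocks the active-site cysteine, and they mature on the way to the vacuole, the cell wall or specialised endoplasmic reticulum bodies. In plants they are known for protein turnover, for programmed cell death and for defence in the apoplast and vacuole, where pathogens secrete inhibitors against them. RD21 and RD19 were named for transcripts responsive to dehydration, aleurain-type proteases are markers of the lytic vacuole, and cathepsin B-type proteases are required for full hypersensitive cell death.

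Promoters are shown for the RD21 trio, of which RD21A but neither paralogue was called with PSK in the main fit, and for RD19C, which was called higher at both PSK doses. The log2 change of RD21C at 100 nM (0.52) was larger than that of RD21A (0.27), and some alternatives called it. The window of RD19A lies for 288 of its 300 bases inside the neighbouring gene AT4G39100 and is not printed. The sequence was read from RefSeq TAIR10.1 at the deposited TAIR10 positions, which are the same in both annotations for 10 of the 10 genes. Each runs 5′ to 3′ in the direction of the gene and ends at the base before the gene start. Capitals mark a W-box (TTGACT or TTGACA, bound by WRKY factors) or the core of an abscisic acid response element (ACGTG), on either strand, so that TGTCAA and CACGT are matches on the opposite strand.
RD21A, TAIR10.1 chr1:17285750-17286049, minus strand: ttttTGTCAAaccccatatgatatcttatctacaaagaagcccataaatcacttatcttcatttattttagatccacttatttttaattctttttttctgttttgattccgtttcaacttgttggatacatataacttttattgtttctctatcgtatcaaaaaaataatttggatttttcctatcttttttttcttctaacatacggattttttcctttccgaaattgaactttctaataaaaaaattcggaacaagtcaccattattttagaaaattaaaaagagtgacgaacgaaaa
RD21B, TAIR10.1 chr5:17272299-17272598, minus strand: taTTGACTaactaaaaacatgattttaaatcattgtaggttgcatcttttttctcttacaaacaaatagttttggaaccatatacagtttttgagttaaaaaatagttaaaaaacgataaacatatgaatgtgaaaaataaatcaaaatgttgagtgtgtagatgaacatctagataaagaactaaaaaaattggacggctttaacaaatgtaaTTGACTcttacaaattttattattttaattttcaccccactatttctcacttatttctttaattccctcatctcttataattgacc
RD21C, TAIR10.1 chr3:6722525-6722824, plus strand: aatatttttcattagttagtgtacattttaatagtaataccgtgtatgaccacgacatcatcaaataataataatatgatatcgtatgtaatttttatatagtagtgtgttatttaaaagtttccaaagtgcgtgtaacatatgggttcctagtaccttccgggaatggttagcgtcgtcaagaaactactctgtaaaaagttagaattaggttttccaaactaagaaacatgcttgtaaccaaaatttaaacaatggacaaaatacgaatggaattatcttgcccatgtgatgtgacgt
RD19C, TAIR10.1 chr4:9171065-9171279, plus strand: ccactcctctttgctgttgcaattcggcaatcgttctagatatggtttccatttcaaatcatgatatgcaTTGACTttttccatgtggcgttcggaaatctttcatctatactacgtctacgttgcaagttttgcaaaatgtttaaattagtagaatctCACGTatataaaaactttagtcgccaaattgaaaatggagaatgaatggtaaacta

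In these windows RD21A had 1 W-box match, starting 296 bp before the gene start, RD21B had 2, starting at 298 and 86 bp, and RD19C had 1 at 145 bp beside an ACGTG match at 56 bp. RD21C had neither. For RD19C the window was cut to 215 bp, where the neighbouring gene ends. Over the 10 genes, 4 had a W-box match within 300 bp (the 4th was ALP2), against 37.9% of 27419 promoters of that length. For these counts no window was cut at a neighbouring gene, in the members or in the other promoters. All 300 bases of the RD19B window lie inside AT2G21440. Of the CTB2 window 132 bases lie inside AT1G02300, and of the CTB3 window 100 lie inside AT4G01600. ACGTG was found in 2 genes, RD19C and ALP2, against 25.6% of promoters. The dehydration-responsive element (ACCGAC or GCCGAC) was found in 0 of the 10, against 8.24%. A match is only a match of letters, and a window without one says nothing of the factor.

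Total counts ran from 17066292 to 24948416 per library. Col-0 replicate 3 stood apart: its counts differed from the other Col-0 libraries by a chi-square of 14.7 and 16.1 per degree of freedom, against 2.92 to 4.92 for every other pair of replicates, so the members' differences between Col-0 and tpst are also given without it. The mutated gene was at 17.1 ± 0.183 CPM (counts scaled by library size and TMM factor, mean ± SD, n = 3) in Col-0 and 7.48 ± 0.731 in untreated tpst. It was lower and not absent, and counts from outside the disrupted stretch check nothing. The libraries also differed in tissue markers. The summed level of 9 root marker genes was 354.5 to 403 CPM in Col-0 and 148 to 175 CPM across the 9 tpst libraries, and the sum over 8 shoot photosynthesis genes was 22970 to 24864 CPM in Col-0 and 30089.5 to 32056 CPM in tpst. No root marker was at 0 in any library. With PSK the root sum adds opposite changes. PHT1;1 was at 45.5 CPM in untreated tpst, 15.4 at 100 nM and 13.5 at 1 µM, and TIP2;2 was at 25.3, 43.3 and 57.3 CPM. Between Col-0 and untreated tpst, 7 root markers were called higher and 1 lower, and 0 photosynthesis genes were called higher and 5 lower (0 and 5 at an unadjusted p under 0.05, 0 and 6 with DESeq2). Of all genes tested, 14.6% were called higher and 13.3% lower in that comparison. The root marker called lower was NRT2.1, and SCR was not called (log2 0.10 ± 0.07). Against the 162.9 to 175 CPM of untreated tpst, the root sum was 148 to 159.8 CPM at 100 nM and 157 to 171 at 1 µM. At each dose 2 root markers were called higher and 2 lower, against 3.20% of all genes called at 100 nM and 6.45% at 1 µM. The photosynthesis sum at 1 µM (31105 CPM and above) lay over that of untreated tpst (30153 to 30628). The part of these shifts in the differences below was not tested, and in whole seedlings fewer cells of a type and less RNA per cell cannot be told apart.

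The summed level of the 10 genes was lower in tpst than in wild type and higher again with PSK, and the most abundant genes weigh most in it. Not every gene shared this course. RD21B and RD21C were not called with PSK, and RD19B, ALP2, CTB2 and CTB3 were not called between Col-0 and untreated tpst. Summed over the 10 genes, the level per gene length was 683 to 727 FPKM (counts divided by gene length and by library size) in Col-0, 578 to 607 in untreated tpst, 664 to 670.4 with 100 nM PSK and 709 to 729.8 with 1 µM PSK. In FPKM the untreated tpst libraries lay below all others, and the libraries of the 1 µM group overlapped those of Col-0. The 10 genes took 0.132% to 0.138% of all counts in Col-0, 0.104% to 0.108% in untreated tpst, 0.118% to 0.120% at 100 nM and 0.124% to 0.129% at 1 µM. By this share untreated tpst was again lowest, but the 1 µM libraries lay below all Col-0 libraries. Whether the 1 µM group reached the level of Col-0 therefore depended on the scaling. RD21A, RD19A and AALP together held 61.3% to 65.1% of the summed FPKM in each of the 12 libraries.

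**Figure D1:**
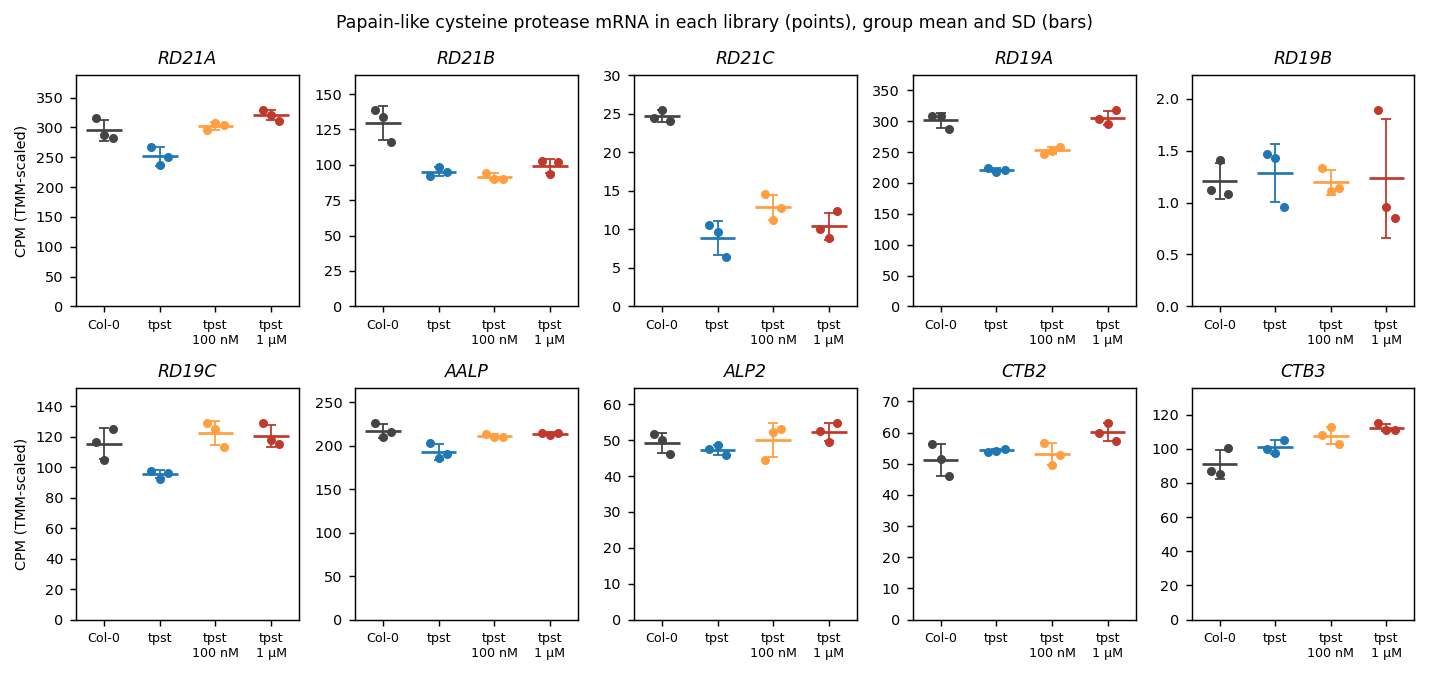
TMM-scaled CPM of each of the 10 protease genes in every library, with 1 panel per gene and a y axis that starts at 0. Points are libraries, horizontal lines are group means and error bars are the SD of 3 libraries. RD21A, RD19A and RD19C show untreated tpst as the lowest group, while RD21B and RD21C show Col-0 as the highest.

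The granulin-bearing proteases come first. RD21A (AT1G47128, TAIR10 chromosome 1, 17282749 to 17285749, minus strand) encodes a vacuolar and endoplasmic reticulum body protease with a granulin domain behind its protease domain, and it contributes to cell death and resistance against necrotrophic fungi. RD21A was at 315, 287 and 283 CPM in the Col-0 libraries, 268, 237 and 249.8 in untreated tpst, 295, 308 and 305 with 100 nM PSK and 329, 321 and 312 with 1 µM PSK. Untreated tpst was the lowest group, with its libraries below all 9 others. The log2 changes of RD21A were 0.23 ± 0.05 for Col-0 minus tpst, 0.27 ± 0.05 for 100 nM PSK minus tpst and 0.35 ± 0.05 for 1 µM PSK minus tpst (± SE). From 100 nM to 1 µM it moved by 0.08 ± 0.05, and although the libraries of the doses did not overlap this step was not called. The 100 nM libraries lay within the range of Col-0, and the 1 µM libraries overlapped its upper end.

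RD21B (AT5G43060, chromosome 5, 17269310 to 17272298, minus strand), a paralogue with the same domain order, behaved otherwise. It stood at 139, 133 and 116 CPM in the Col-0 libraries, 91.9, 98.6 and 94.8 in untreated tpst, 94.3, 90.1 and 90.2 with 100 nM PSK and 102, 93.8 and 102 with 1 µM PSK. Col-0 was above all 9 tpst libraries, whether or not they had PSK. Its log2 change was 0.44 ± 0.06 for Col-0 minus tpst, but -0.06 ± 0.06 and 0.06 ± 0.06 for the lower and the higher dose against untreated tpst, neither of which was called.

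RD21C (AT3G19390, chromosome 3, 6722825 to 6725110, plus strand), the least abundant of the trio, differed most between the genotypes. Values of RD21C were 24.5, 25.5 and 24.1 CPM in the Col-0 libraries, 10.6, 9.65 and 6.42 in untreated tpst, 14.5, 11.2 and 12.8 with 100 nM PSK and 9.98, 8.90 and 12.3 with 1 µM PSK. The Col-0 mean of 24.7 ± 0.723 CPM stood against 8.89 ± 2.19 in untreated tpst, a log2 difference of 1.46 ± 0.14. At 100 nM the 3 libraries were above untreated tpst, and at 1 µM they overlapped it. The log2 change was 0.52 ± 0.15 at 100 nM and 0.22 ± 0.15 at 1 µM, and neither was called. The change at 100 nM became a call with DESeq2 (0.53), without the filter on low counts (0.52), with only the 2 groups in the fit, and without any of 4 libraries: Col-0 replicate 3, tpst replicate 1, 100 nM replicate 2 (0.61) or 1 µM replicate 3. It went the other way without tpst replicate 3, to 0.34 at 100 nM, not called. The 1 µM change was 0.04 without tpst replicate 3, 0.08 without 1 µM replicate 3 and 0.36 without tpst replicate 1, and was called in none of these.

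The RD19 group holds the transcript with the highest mean FPKM of the set over the 12 libraries, RD19A, although RD21A was above it in every 100 nM library. RD19A (AT4G39090, chromosome 4, 18215542 to 18217616, minus strand) encodes a vacuolar protease that a bacterial effector of Ralstonia solanacearum relocates to the nucleus, and it is needed for resistance through the immune receptor RRS1-R. RD19A was at 309, 308 and 287 CPM in the Col-0 libraries, 223, 218 and 221 in untreated tpst, 247, 252 and 259 with 100 nM PSK and 303, 295 and 318 with 1 µM PSK. The untreated tpst libraries were lowest, the 100 nM libraries lay between, and the 1 µM libraries overlapped those of Col-0. Its log2 changes were 0.45 ± 0.05 for Col-0 minus tpst, 0.19 ± 0.05 for 100 nM PSK minus tpst and 0.47 ± 0.05 for 1 µM PSK minus tpst. Between the doses RD19A differed by 0.27 ± 0.05, and it was the 1 member called there.

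The calls for RD19A at 100 nM and between the doses were narrow. The 100 nM call was lost without tpst replicate 1, 2 or 3 or 100 nM replicate 2 or 3, with the log2 change at 0.18 to 0.20. The call between doses was lost without 100 nM replicate 1 or 2 or 1 µM replicate 3, with the change at 0.24 to 0.27. The size of the change moved little when these libraries were left out.

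RD19C (AT4G16190, chromosome 4, 9171280 to 9173667, plus strand), a relative of RD19A, was at 116, 105 and 125 CPM in the Col-0 libraries, 97.7, 92.6 and 95.9 in untreated tpst, 129, 125 and 113 with 100 nM PSK and 129, 118 and 115 with 1 µM PSK. Untreated tpst was again below all other libraries, and the other 3 groups overlapped each other. The log2 changes of RD19C were 0.28 ± 0.06 for Col-0 minus tpst, 0.36 ± 0.06 for 100 nM PSK minus tpst and 0.34 ± 0.06 for 1 µM PSK minus tpst, and it moved by -0.02 ± 0.06 from 100 nM to 1 µM. An annotated antisense gene overlaps RD19C over 486 bp and had 0 counts in all 12 libraries.

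RD19B (AT2G21430) was close to the detection limit, at 0.848 to 1.89 CPM over the 12 libraries with 323 counts in all. Its log2 changes ran from -0.11 to 0.06 over the 4 comparisons, with an SE of 0.35 to 0.36. It overlaps AT2G21440 on the same strand by 107 bp, and that neighbour had 24400 counts, so the level of RD19B is uncertain.

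Of the aleurain-type genes, AALP (AT5G60360, chromosome 5, 24279660 to 24282482, plus strand) encodes the aleurain-like protease used as a marker of the lytic vacuole. AALP was at 226, 210.3 and 215 CPM in the Col-0 libraries, 203, 186 and 191 in untreated tpst, 213, 211 and 210.5 with 100 nM PSK and 215, 212 and 215 with 1 µM PSK. All 3 untreated tpst libraries were below every other library, by a small margin. The log2 changes of AALP were 0.17 ± 0.05 for Col-0 minus tpst, 0.13 ± 0.05 for 100 nM PSK minus tpst and 0.15 ± 0.05 for 1 µM PSK minus tpst. The Col-0 difference was called, but not without Col-0 replicate 1 (0.14) or tpst replicate 2 (0.15). The 1 µM change was not called, but was with DESeq2, with only those 2 groups in the fit and without Col-0 replicate 3.

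ALP2 (AT3G45310), the second aleurain-type gene, had 44.5 to 54.7 CPM over the 12 libraries. Its libraries overlapped between all groups except that the 1 µM group lay above untreated tpst, with a log2 change of 0.14 ± 0.07 that was not called.

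The cathepsin B-type genes did not share the lower level in tpst. CTB3 (AT4G01610, chromosome 4, 694582 to 697206, plus strand) was at 86.9, 85.0 and 101 CPM in the Col-0 libraries, 100.0, 97.5 and 105 in untreated tpst, 108, 112 and 103 with 100 nM PSK and 115, 111 and 111 with 1 µM PSK. The 1 µM group lay above all libraries of untreated tpst and of Col-0, and the 100 nM libraries lay above Col-0. Its log2 changes were -0.15 ± 0.06 for Col-0 minus tpst, 0.09 ± 0.06 for 100 nM PSK minus tpst and 0.16 ± 0.06 for 1 µM PSK minus tpst, none of them called. Without Col-0 replicate 3, CTB3 was called lower in Col-0 than in tpst, at a log2 difference of -0.23. It was also called higher at 1 µM without that library or with only those 2 groups in the fit.

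CTB2 (AT1G02305, chromosome 1, 455688 to 458164, plus strand) was at 56.4, 51.4 and 46.0 CPM in the Col-0 libraries, 53.9, 54.1 and 54.9 in untreated tpst, 56.6, 49.5 and 52.9 with 100 nM PSK and 59.9, 63.0 and 57.4 with 1 µM PSK. The 1 µM libraries were above all 9 others. The log2 change was -0.08 ± 0.07 for Col-0 minus tpst, 0.15 ± 0.07 at 1 µM and 0.18 ± 0.07 between the doses, and none was called. CTB2 and CTB3 share exact matches of 44 and 41 bases with CTB1, the third cathepsin B-type gene, and for the other 8 members the longest exact match elsewhere in the genome was 25 to 39 bases.

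Counted over the 10 genes, which all passed the filter on low counts, edgeR called 6 higher and 0 lower in Col-0 than in tpst: RD21A, RD21B, RD21C, RD19A, RD19C and AALP. Of all 20506 genes tested, 27.9% were called in that comparison, 14.6% higher and 13.3% lower. At 100 nM, 3 were called higher and 0 lower than in untreated tpst, against 3.20% of all genes (1.29% higher and 1.91% lower). At 1 µM again 3 were called higher and 0 lower, against 6.45% of all genes (3.00% higher and 3.45% lower). RD21A, RD19A and RD19C were the 3 at each dose. Between the doses, RD19A alone was called, against 0.239% of all genes (0.127% higher and 0.112% lower). Beside the zeros, the members lower at an unadjusted p under 0.05 numbered 1 for Col-0 and 0 in the other comparisons, and DESeq2 called 0 lower in any of them. The members were chosen with these results known, so the shares are printed for scale only.

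The median log2 change of the 10 genes was 0.20 for Col-0 minus tpst, 0.11 at 100 nM, 0.15 at 1 µM and 0.06 between the doses, where the median of all genes tested was 0.00 in each. The libraries of the groups did not overlap for 6 of the 10 in Col-0 against tpst (39.8% of all genes), for 5 at 100 nM (19.8%), for 7 at 1 µM (26.6%) and for 3 between the doses (18.2%). Both doses and Col-0 were compared with the same 3 untreated tpst libraries, so the comparisons are not independent of each other.

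**Figure D2:**
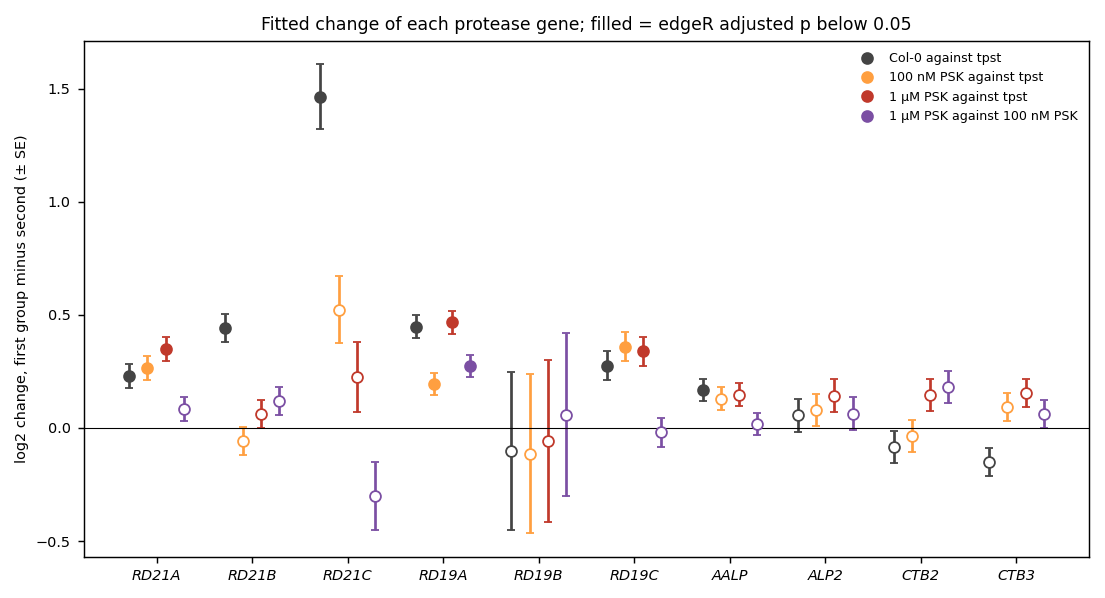
Fitted log2 change of each protease gene (y axis, first group minus second, error bars ± SE) in the 4 comparisons. Filled points passed an adjusted p of 0.05 in edgeR. RD21C has the highest change, 1.46 for Col-0 minus tpst, and RD21A, RD19A and RD19C are filled in the comparisons of Col-0 and of both doses with tpst.

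The PSK-treated libraries were also set against wild type directly. Col-0 lay above the 100 nM libraries for RD21B, RD21C and RD19A and below them for CTB3. Col-0 lay above the 1 µM libraries for RD21B and RD21C and below them for CTB2 and CTB3. The other 6 genes overlapped in each of these pairs of groups. Over all genes tested, 39.7% did not overlap between Col-0 and 100 nM and 44.5% between Col-0 and 1 µM, and no model was fitted to these contrasts.

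Without Col-0 replicate 3, the 6 genes called in Col-0 kept their call, and CTB3 joined them as lower. The log2 differences were then 0.26 for RD21A, 0.52 for RD21B, 1.48 for RD21C, 0.48 for RD19A, 0.21 for RD19C and 0.17 for AALP. For the members not called they were 0.10 for ALP2, -0.01 for CTB2 and -0.03 for RD19B, and CTB3 was at -0.23. Of the genes named below from the other lists for their difference in Col-0, all kept their call without that library except CYS5 (log2 -0.21). GAMMA-VPE was left out of this check.

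Levels between genes were compared per gene length. RD19A had 178 ± 7.20 FPKM in Col-0 and RD21A 152 ± 8.93, followed by AALP with 119.9 ± 4.38. RD21B at 62.6 ± 5.77, CTB3 at 55.3 ± 5.24 and RD19C at 53.3 ± 4.74 FPKM were close, and their spreads overlapped. CTB2 (36.1 ± 3.66), ALP2 (29.2 ± 1.66) and RD21C (12.9 ± 0.374) were lower, and RD19B was at 0.875 ± 0.127. By mean FPKM over the 12 libraries, RD19A stood at the 96.9th, RD21A at the 96.7th and AALP at the 95.7th percentile of genes tested, and RD21C at the 48.4th and RD19B at the 10.7th.

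The order of the leading pair changed with the group. RD19A was above RD21A in 3 of 3 Col-0 libraries, in 2 of 3 untreated tpst libraries, in 0 of 3 at 100 nM and in 3 of 3 at 1 µM. As a share of the summed FPKM, RD19A held 25.4% in Col-0, 22.1% in untreated tpst, 22.5% at 100 nM and 25.1% at 1 µM. RD21C held 1.84% in Col-0 and 0.785% in untreated tpst. CTB3 went the other way, with 7.91% in Col-0 and 10.4% in untreated tpst.

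**Figure D3:**
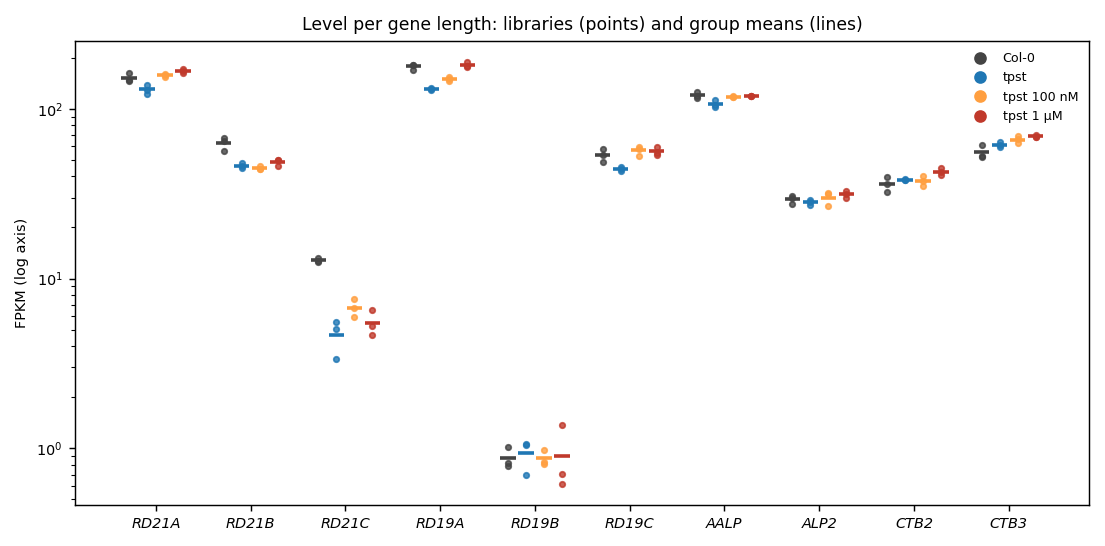
FPKM on a log axis for the 10 genes, with the 4 groups side by side. Points are libraries and short lines are group means. RD19A, RD21A and AALP lie above 100 FPKM in all 12 libraries, and RD19B lies near 1.

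As a description of how the 10 genes moved together, log2 CPM was correlated over the 12 libraries, which share the 4 groups and so the same mean shifts. RD21A followed AALP (Pearson r 0.880), RD19C (0.818) and RD19A (0.778), but its r with RD21B was 0.135. RD21B followed RD21C at 0.808 and ran opposite to CTB3 at -0.774. Among all genes tested, the nearest to RD21A was P5CSA, a proline synthesis gene (r 0.945), the nearest to RD19A was the aquaporin gene PIP1-3 (0.944) and the nearest to AALP was PAL1, of the phenylpropanoid pathway (0.926). RD21B was nearest to AT5G51630 (0.982), which the table describes as a disease resistance protein of the TIR-NBS-LRR class, and RD21C to AT4G12510 (0.983). RD19C was nearest to CHI3 (0.911), CTB2 to KPHMT1 (0.931) and CTB3 to SCPL9 (0.972), and ALP2 and RD19B to AT3G51610 (0.869) and AT1G67510 (0.858).

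The rest of the protease family was read from a list of 22 other PLCP genes, of which 15 passed the filter. Like the members, this and the other gene lists were chosen with earlier results of these libraries known. Their counts and p-values are therefore a description. In Col-0 against tpst, 7 were called higher and 2 lower, against 14.6% and 13.3% of all genes tested. RDL5, an RD21A-like gene, rose from 27.0 ± 3.75 CPM in tpst to 94.4 ± 5.37 in Col-0 (log2 1.81 ± 0.09, edgeR adjusted p = 3.09e-12). CEP2, a KDEL-tailed protease of a group tied to cell death, differed by 1.34 ± 0.17 (edgeR adjusted p = 7.04e-06), RDL1 by 0.80 ± 0.22 (adjusted p = 0.00578) and XCP2, which clears the contents of xylem vessel cells, by 0.51 ± 0.08 (adjusted p = 2.20e-05). CTB1 was lower in Col-0, at 11.4 ± 1.72 against 18.7 ± 1.15 CPM (log2 -0.71 ± 0.11, edgeR adjusted p = 1.17e-05). CEP1, of the same group as CEP2, was the other gene called lower, at 0.595 ± 0.244 against 1.19 ± 0.171 CPM (log2 -0.98 ± 0.37, edgeR adjusted p = 0.0492). Its call was lost with DESeq2, without the filter, with only the 2 groups, with the replicate block and on leaving out any library except Col-0 replicate 3 or 1 µM replicate 3 (-1.09 to -0.75).

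With PSK, 2 of the 15 were called higher and 0 lower at 100 nM, and 3 higher and 1 lower at 1 µM. Over all genes tested, 1.29% were called higher and 1.91% lower at 100 nM, and 3.00% and 3.45% at 1 µM. At 100 nM, 1 was lower at an unadjusted p under 0.05 and 0 with DESeq2. RDL5 went to 38.2 ± 4.49 CPM at 100 nM (log2 0.51 ± 0.09, edgeR adjusted p = 0.00211), still far from its Col-0 level. It was also called at 1 µM, at 38.0 ± 1.81 CPM (log2 0.497 ± 0.095, edgeR adjusted p = 0.00187). AT2G27420 rose by 0.80 ± 0.21 at 100 nM (edgeR adjusted p = 0.0327) and by 0.90 ± 0.22 at 1 µM (adjusted p = 0.00977). RDL1 rose by 0.99 ± 0.22 at 1 µM (edgeR adjusted p = 0.00473) and AT2G34080 changed by -0.97 ± 0.27 (adjusted p = 0.0276). These last 3 had under 10 CPM in every group, and their 1 µM calls were lost on leaving out single libraries: tpst replicate 1 or 2 or 1 µM replicate 2 for AT2G27420 (log2 0.74 to 0.83), these or 1 µM replicate 3 for AT2G34080 (-0.90 to -0.82), and 1 µM replicate 1 for RDL1 (0.77). At 100 nM the call of AT2G27420 was lost without tpst replicate 1 or 2 or 100 nM replicate 1 or 3 (0.59 to 0.88). RDL5 shares an exact match of 63 bases with RDL4, which had too few counts to be tested, so the split of reads between them is uncertain.

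Of 9 listed protease inhibitor genes (cystatins, a serpin and others), 8 were tested. Over all genes tested, 14.6% were called higher and 13.3% lower in Col-0, 27.9% in all. Near that total share, Col-0 had 0 inhibitors higher and 2 lower (0 and 2 at an unadjusted p under 0.05, 0 and 1 with DESeq2). These were CYS3 at -0.36 ± 0.11 and CYS5 at -0.28 ± 0.10 on the log2 scale, which are cystatins. The call of CYS3 was lost without Col-0 replicate 1 or tpst replicate 3 (-0.31 and -0.24), and that of CYS5 without Col-0 replicate 2 or 3 or any tpst library (-0.30 to -0.21). At 100 nM the count was 0 in either direction (0 higher and 1 lower at an unadjusted p under 0.05, 0 with DESeq2), and at 1 µM it was 1 higher, CYS1, with a log2 change of 0.22 ± 0.06, which was not called without tpst replicate 2 or 3 or 1 µM replicate 2 or 3 (0.18 to 0.22). The shares called over all genes were 3.20% at 100 nM and 6.45% at 1 µM.

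Of 12 genes that process or sort these proteases, 11 were tested. In Col-0 against tpst, 6 were called higher and 1 lower, against 14.6% and 13.3% of all genes tested. The vacuolar sorting receptor genes VSR7 (1.76 ± 0.13, edgeR adjusted p = 1.62e-10), VSR6 (1.30 ± 0.14, adjusted p = 5.48e-08) and VSR5 (2.23 ± 0.280 against 0.784 ± 0.440 CPM, adjusted p = 0.00694) were higher in Col-0, and BETA-VPE, a processing enzyme mainly known from seeds, was lower (-1.04 ± 0.13, adjusted p = 4.23e-07). GAMMA-VPE, another processing enzyme, went the other way, at 43.1 ± 4.93 CPM in Col-0 against 30.9 ± 0.496 in tpst (log2 0.48 ± 0.09, edgeR adjusted p = 0.000107). VSR1, a receptor that sorts aleurain-type proteases, was at 109.8 ± 0.593 CPM in Col-0 and 112 ± 4.19 in tpst and was not called. With PSK, where 3.20% of all genes were called at 100 nM and 6.45% at 1 µM, 0 were called at 100 nM (1 higher at an unadjusted p under 0.05, and 1 higher with DESeq2). At 1 µM, 0 were called higher and 1 lower: PDI5, a disulfide isomerase that holds RD21 as a chaperone partner in seed cells, at 245 ± 5.51 CPM with 100 nM, 217 ± 3.47 with 1 µM and 259 ± 6.67 without (log2 -0.26 ± 0.06). PDI5 was higher in Col-0 than in tpst, at 331 ± 32.8 CPM (log2 0.35 ± 0.06, edgeR adjusted p = 2.50e-05).

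**Figure D4:**
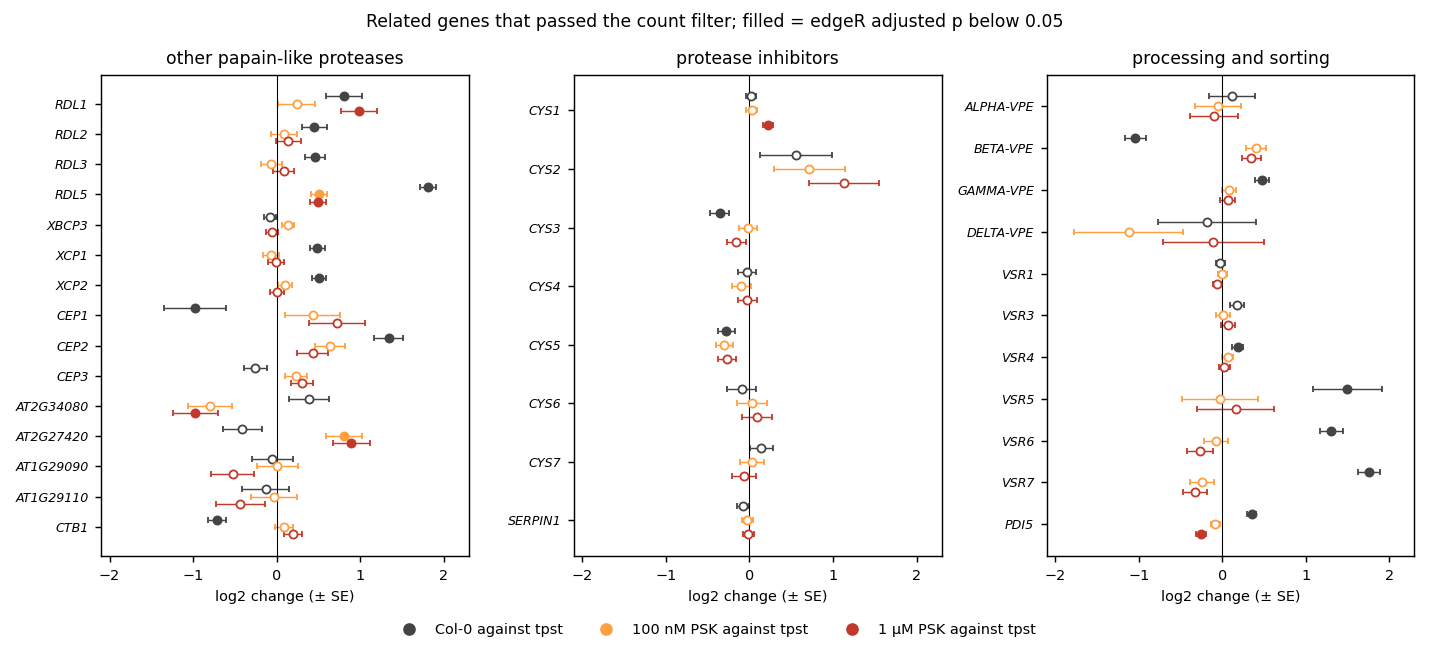
Fitted log2 change (x axis, ± SE) of the tested genes in the lists of other PLCP genes, protease inhibitors, and processing and sorting genes, for Col-0 and both PSK doses against untreated tpst. Filled points passed an adjusted p of 0.05 in edgeR. The highest value is RDL5 in Col-0, at 1.81.

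Because RD21 and RD19 carry the name of the dehydration response, 10 other dehydration-response genes were read beside them. In Col-0 against tpst, 3 were called higher and 3 lower, against 14.6% and 13.3% of all genes tested. COR47, a dehydrin gene, was higher in Col-0 (log2 1.44 ± 0.07, edgeR adjusted p = 6.50e-13), as were RD26 (0.96 ± 0.16, adjusted p = 3.80e-05) and ERD10 (0.58 ± 0.08, adjusted p = 1.60e-05), while RD22 (-0.84 ± 0.06, adjusted p = 8.34e-11), RD20 (-1.55 ± 0.39, adjusted p = 0.00313) and COR15A (-0.63 ± 0.20, adjusted p = 0.0168) were lower. The call of COR15A was lost without Col-0 replicate 2 or tpst replicate 2 (-0.55 and -0.56). At each dose of PSK 2 were called higher and 1 lower, against 3.20% of all genes called at 100 nM and 6.45% at 1 µM. COR47 rose by 0.57 ± 0.07 at 100 nM (edgeR adjusted p = 1.40e-05) and by 0.43 ± 0.07 at 1 µM (adjusted p = 0.000253). RD22 fell, with a log2 change of -0.56 ± 0.06 at 100 nM and -0.58 ± 0.06 at 1 µM. RD29A, an often used marker of drought and cold, was at 42.1 ± 7.35 CPM in Col-0, 37.6 ± 9.85 in untreated tpst, 55.6 ± 5.69 at 100 nM and 46.1 ± 10.1 at 1 µM, and was not called.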

How the data were processed

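Reads of 12 whole-seedling libraries were processed by the authors, per the labels and submitters' processing notes, with fastp, HISAT2 2.0.5 and featureCounts 1.5.0-p3 on TAIR10. The strand and multi-mapping settings were not given in the sources used here. Seedling is the labelled tissue, although the extraction text speaks of shoots and roots. The deposited table holds, per gene, raw counts and the FPKM that the authors derived from them (counts per gene length over a library size). That library size, read back from the values, was above the total count in every Col-0 library and below it in every tpst library. It was 26904690 against 24835416 counts in Col-0 replicate 3, and 16650560 against 17066292 in 1 µM replicate 2.

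Counts were tested in R 4.3.3 with edgeR 4.0.16. Genes passing filterByExpr (20506 of 32833, holding 99.96% of counts) were TMM-scaled and fitted together in a quasi-likelihood model of the 4 group means (residual degrees of freedom 8). Calls were two-sided, at p-values under 0.05 after Benjamini-Hochberg adjustment across the 20506 genes. FPKM served to compare genes and to give the summed level and the shares of the 10 genes in each group. FPKM values were not tested. An exact permutation of 3 libraries against 3 cannot go below p = 0.1 and was not used. Counting error limits the precision of RD19B and the genes under 10 CPM most.

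Groups followed the labels. The members and gene lists were chosen with earlier results of these data known. All 10 members were described. From each other list called genes with an absolute log2 change of at least 0.5 were named, at most the 5 with the smallest p per comparison, and for each member the gene with the highest Pearson r. CEP1, COR15A, CYS1, CYS3, CYS5, PDI5, GAMMA-VPE, VSR1 and RD29A were named outside that rule after their values were seen. So were the root markers PHT1;1, TIP2;2, NRT2.1 and SCR, and RDL5 and COR47 at 1 µM. Promoters (300 bp) came from RefSeq TAIR10.1, and positions were the same for 32532 of 32548 nuclear genes. Exact matches were searched with blastn 2.17.0. Alternatives were DESeq2 1.42.0, RLE factors, no filter, 2-group fits, a replicate block and leaving out each library. Scripts were tested on simulated data.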

Additional observations from a re-analysis of the deposited data

How the results depend on the processing

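No called change of a member or named gene reversed its direction under any alternative. The named root markers, GAMMA-VPE and the 1 µM changes of RDL5 and COR47 were left out of that check. In the all-library fit 3 members were called at 1 µM, and with only the 2 groups compared 5 were. With DESeq2 the count between the doses was 156 of all genes, against 49, without the filter it was 97, and with only those 2 groups 467. With only 2 groups, 2115 of all genes were called at 1 µM, against 1323. Inhibitors called in Col-0 against tpst went from 2 to 1 with DESeq2 and with 2 groups, and between the doses from 0 to 1 with 2 groups. Processing and sorting genes called at 100 nM went from 0 to 1 with DESeq2, RLE factors, 2 groups and the replicate block, and between the doses from 0 to 1 with 2 groups.

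The deviations of same-numbered libraries of different groups correlated at -0.219 to 0.249 (median 0.042, 18 pairs). Those with different numbers correlated at -0.259 to 0.253 (median -0.019, 36 pairs). With 3 libraries per group these values cannot decide whether the replicate numbers pair the samples. With the replicate block, 95 of all genes were called between the doses, and member counts stayed at 6, 3, 3 and 1.

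Leaving out each library, all genes called ran from 4577 to 5802 (Col-0), 407 to 1033 (100 nM), 778 to 2174 (1 µM) and 17 to 535 (between doses). Members ran from 5 to 7, 2 to 4, 3 to 5 and 0 to 1, other PLCP genes from 6 to 10, 1 to 3, 2 to 4 and 0 to 1, inhibitors from 0 to 2, 0 to 0, 0 to 1 and 0 to 1, and processing genes from 6 to 7, 0 to 1, 1 to 2 and 0 to 1. Members called at 1 µM rose to 5 without Col-0 replicate 3, and the count between doses was 0 without 100 nM replicate 1 or 2 or 1 µM replicate 3. Other PLCP genes at 1 µM numbered 2 without tpst replicate 1 or 2 or 1 µM replicate 2, and at 100 nM 1 without tpst replicate 2 or 100 nM replicate 1 or 3. Inhibitors in Col-0 numbered 1 without any Col-0 library or tpst replicate 1 or 2 and 0 without tpst replicate 3, and at 1 µM 0 without tpst replicate 2 or 1 µM replicate 2 or 3. RD19B went to -0.52 at 1 µM without 1 µM replicate 1. The cause of these shifts was not tested.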
